A study of Arabidopsis thaliana with 4 samples.

Results

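The brightest named transcripts of wild-type *Arabidopsis thaliana* seedling shoots are described here as 200 probe sets, which were chosen by their own signal. All 22746 probe sets of the ATH1 array other than Affymetrix controls were ranked by the mean log2 signal of the 2 wild-type arrays, and the first 200 with exactly 1 gene symbol in the platform annotation were kept, out of 13513 such probe sets. The levels and ranks are therefore a description of the choice, and they were not tested.

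The RNA was total RNA of wild-type seedlings harvested without roots at an age of 10 days and grown on Murashige and Skoog agar with sucrose under continuous light. The series holds 4 arrays, of which the 2 of the *eif3h* mutant, defective in a subunit of translation initiation factor eIF3, entered nothing here. Each wild-type array stands for 1 biological repeat, for which the shoots of many seedlings were pooled, and the deposited settings of the arrays show different scan days and different scanners, so that repeat, day and scanner cannot be told apart. The deposited value is the MAS5 signal, an intensity on a linear scale that the authors had scaled to a common trimmed mean. It depends on the probes as well as on the RNA, so the brightness of a probe set is not a measure of molar abundance, and the ranks below do not order genes by copy number.

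In a green leaf cell the chloroplast converts light into ATP and NADPH through photosystems I and II, the cytochrome b6f complex and an ATP synthase in the thylakoid membrane, and fixes carbon dioxide in the stroma through the Calvin cycle. These complexes are mosaics: some subunits are encoded in the plastid's own small genome, in clusters of genes that are often transcribed together, and the others in the nucleus. Plastid genes are read by a plastid-encoded and by a nuclear-encoded RNA polymerase, and their transcripts are translated on bacterial-type ribosomes inside the organelle.

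Of the 200 members, 111 could be given a function or a description and 89 could not, because the platform annotation names them by a locus tag alone. A symbol annotated 84 members, a synonym 6 and a description in the study's own gene lists 21, and 8 of those 21 are described there only as unknown or expressed proteins. The product of 67 members, 60.4% of the 111, is placed in the plastid, and 39 of these are encoded by the plastid genome itself. The light reactions accounted for 36 members: 20 of the photosystems and their assembly, 14 of electron transport, the ATP synthase and the NDH complex, and 2 of the light-harvesting antenna. All 39 plastid-encoded members carry a symbol, against 45 of 161 nuclear-encoded members, so these shares describe the named part of the ranking. Among the 20 brightest members, 17 have a plastid product and 15 belong to the light reactions.

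**Figure D1:**
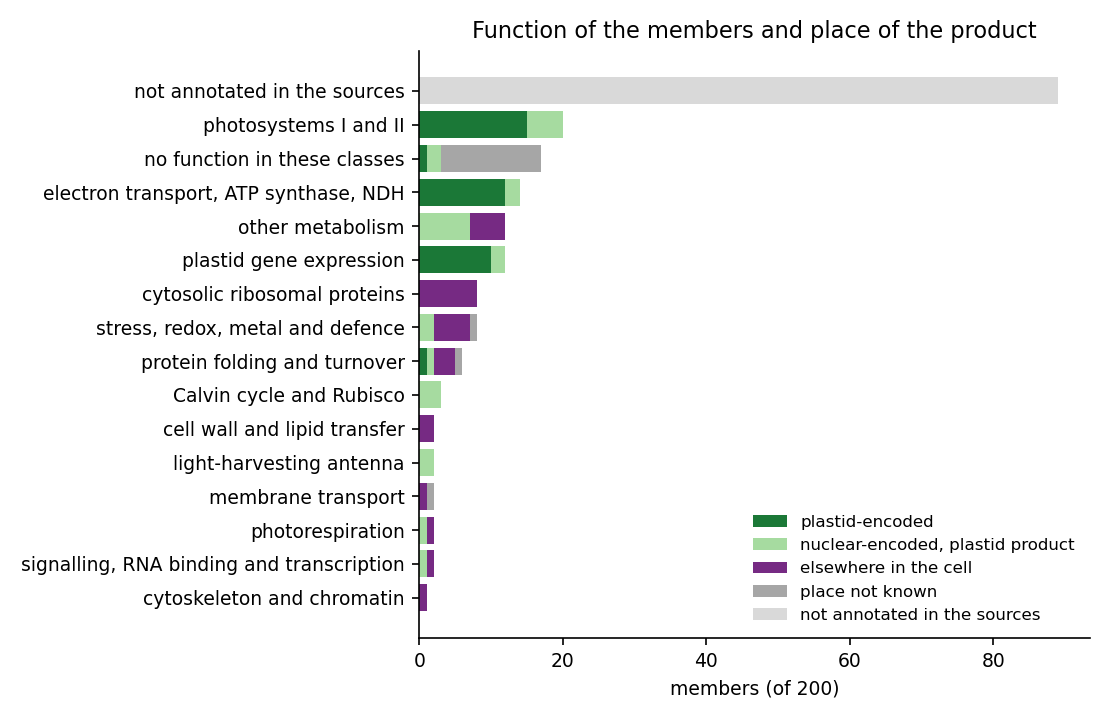
Number of members, of 200, in each functional class, with bars split by the place of the product. The photosystems (20 members) and electron transport (14) were mostly plastid-encoded, while 89 members could not be annotated from the sources used here.

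The ATP synthase gave the brightest members of all. The plastid gene *atpB*, for the beta subunit that carries the catalytic sites, had a signal of 73731 on replicate 2 and 40023 on replicate 1. Its neighbour *atpE*, for the epsilon subunit, had 62929 on replicate 2 and 35424 on replicate 1. Both were brighter on replicate 2, by 0.88 and 0.83 on the log2 scale. The nuclear gene *ATPC1*, for the gamma subunit of the rotating stalk, had 34118 on replicate 2 and 22359 on replicate 1. The alpha subunit gene *atpA* stood at 27890 on replicate 2 and 26471 on replicate 1. The plastid genes *atpH* and *atpF*, for subunits of the membrane part, were also members, so that 6 of the 8 named ATP synthase probe sets were. The exceptions were *atpI* at rank 6242 and *ATPC2* at rank 10446 of all probe sets.

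Photosystem subunits from both genomes stood side by side near the top. The plastid gene *psbM*, for a small subunit of the photosystem II core, had 63565 on replicate 2 and 27404 on replicate 1, the largest excess of replicate 2 among the members (1.21 on the log2 scale). The photosystem I reaction centre gene *psaB* gave 44276 on replicate 2 and 36136 on replicate 1. From the nucleus, *PSAE-1*, a stromal subunit of photosystem I, had 35767 on replicate 2 and 30731 on replicate 1. These 3 genes differ in how closely the arrays repeated: *psaB* and *PSAE-1* lay well within 1.5-fold and *psbM* beyond 2-fold. The small photosystem II subunits *PSBW* (28994 on replicate 2 and 23132 on replicate 1) and *PSBY* (25926 on replicate 2 and 21364 on replicate 1) and the photosystem I subunit gene *psaJ* (23580 on replicate 2 and 27988 on replicate 1) were also among the first 20. Of all named probe sets of the complexes, 6 of 7 for photosystem I and 13 of 18 for photosystem II were members. The dimmest was *psaC* for photosystem I (rank 830) and *psbN* for photosystem II (rank 10474).

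The antenna was represented by *LHCB4.1* and *LHCB4.2*, which encode CP29, a minor chlorophyll-binding protein that links the major antenna to photosystem II. *LHCB4.1* had 42635 on replicate 2 and 32418 on replicate 1. *LHCB4.2* had 23361 on replicate 2 and 25215 on replicate 1. The third named antenna probe set, *LHCB4.3*, stood at rank 2138 and was no member. Other antenna genes carry no name of their own in the platform annotation and were not analysed here.

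Between the photosystems, *petB*, for cytochrome b6, had 40886 on replicate 2 and 27787 on replicate 1. *petA*, for cytochrome f, had 20322 on replicate 2 and 12101 on replicate 1. These were the 2 members among 6 named cytochrome b6f probe sets, and *petD*, for subunit IV, was the dimmest at rank 10759. *ccsA*, which attaches heme to c-type cytochromes, had 26797 on replicate 2 and 22408 on replicate 1. The NDH complex, which returns electrons from the stroma to the plastoquinone pool, gave 5 members among 14 named probe sets. *ndhI* led them with 40149 on replicate 2 and 29064 on replicate 1, and *ndhF* was the dimmest of the 14 at rank 14452.

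Carbon fixation was named by few probe sets. *RCA*, for Rubisco activase, which removes inhibitory sugar phosphates from Rubisco, was the brightest nuclear-encoded member with 58204 on replicate 2 and 30586 on replicate 1. *PRK*, for phosphoribulokinase, had 25538 on replicate 2 and 20367 on replicate 1. *SBPASE*, for sedoheptulose-bisphosphatase, had 19990 on replicate 2 and 15116 on replicate 1. All 3 were brighter on replicate 2. The gene for the large subunit of Rubisco, *rbcL*, missed the 200 at rank 891, with 2240 on replicate 2 and 4949 on replicate 1, and no probe set of the small subunit was named. In photorespiration, which recycles the product of Rubisco's oxygenase reaction, both named genes were members. *HPR*, the peroxisomal hydroxypyruvate reductase, had 21586 on replicate 2 and 16829 on replicate 1, and *LrgB*, for a plastid glycolate and glycerate transporter, 9182 on replicate 2 and 6474 on replicate 1.

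The plastid's own gene expression gave 12 members, 10 of them plastid-encoded. *matK*, for a maturase that assists intron splicing, had 24003 on replicate 2 and 21236 on replicate 1. The ribosomal protein gene *rpl33* had 21194 on replicate 2 and 14044 on replicate 1, and *rps4* had 13104 on replicate 2 and 19209 on replicate 1. The nuclear gene AT2G43030, described as 50S ribosomal protein L3, had 16967 on replicate 2 and 15466 on replicate 1. Of 15 named plastid-encoded ribosomal protein genes 8 were members, with *rpl33* the brightest at rank 115 and *rps14* the dimmest at rank 12193. Of the 4 named subunits of the plastid-encoded RNA polymerase, *rpoA* was a member (rank 337) and *rpoB* was the dimmest (rank 9851).

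Chlorophyll synthesis was present with AT1G74470, geranylgeranyl reductase, which makes the phytol tail, at 20702 on replicate 2 and 18100 on replicate 1. It was joined by *CHLM*, *PORB*, *LIL3:1* and *LIL3:2*, so that 5 of 12 named probe sets of chlorophyll and heme synthesis were members, while *HEMA3* was the dimmest at rank 18728. Of the cytosolic enzymes, *GAPC2*, a glycolytic glyceraldehyde-3-phosphate dehydrogenase, had 32731 on replicate 2 and 21518 on replicate 1. *SAMDC*, for the decarboxylase that feeds polyamine synthesis, had 20704 on replicate 2 and 16841 on replicate 1. Triose phosphate isomerase, *TPI*, had 14918 on replicate 2 and 11179 on replicate 1. The class of other metabolism, which holds the members of this paragraph, had 12 members, of which 7 products are plastid proteins.

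Cytosolic ribosomal proteins gave 8 members, and 7 of the 8 owed their name to the study's lists of genes called changed, which are a selected group. The brightest of these 8 was member 52, and the 89 members without annotation may hold others. AT3G49910, described as ribosomal protein L26, had 14604 on replicate 2 and 13309 on replicate 1, and AT4G27090, as L14, had 12174 on replicate 2 and 14689 on replicate 1. AT4G16720 had 6826 on replicate 2 and 6904 on replicate 1, and AT2G27720, an acidic P2 protein, 7426 on replicate 2 and 6186 on replicate 1. AT2G27720 and its neighbour on chromosome 2, AT2G27710, were the only nuclear members adjacent to each other in the gene table.

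Protein turnover was led by *clpP*, the plastid-encoded subunit of the Clp protease, with 21200 on replicate 2 and 18970 on replicate 1. The vacuolar aspartic protease gene *APA1* had 11516 on replicate 2 and 11003 on replicate 1, and the ubiquitin-conjugating enzyme gene *UBC28* had 9457 on replicate 2 and 10193 on replicate 1. AT4G16190, described as a papain-like cysteine proteinase, had 8748 on replicate 2 and 9318 on replicate 1. These 4 and *CLPP4* were within 1.5-fold on the arrays. The sixth member of the class, the autophagy gene *ATG8F*, was not, with 4162 on replicate 2 and 7065 on replicate 1 (-0.76).

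Stress, redox, metal and defence genes made up 8 members. The peroxidase gene *PRXR1* had 12745 on replicate 2 and 18230 on replicate 1. *ATHM2*, a plastid m-type thioredoxin, had 11718 on replicate 2 and 8380 on replicate 1. The dehydrin gene AT1G54410, also called HIRD11, had 7427 on replicate 2 and 8862 on replicate 1. *PYK10*, the beta-glucosidase of ER bodies and 1 of 3 named root markers, had 10915 on replicate 2 and 6291 on replicate 1 at rank 306, while the root-hair expansins *EXPA7* and *EXPA18* stood at ranks 16562 and 13725, with 72.2 and 187 on replicate 2 and 61.8 and 89.1 on replicate 1. Of 10 green shoot markers only *RCA* was named, and the pollen histone gene *MGH3* was at 12.9 on replicate 2 and 6.2 on replicate 1, so the labelled aerial tissue could be checked on these few genes only. The metallothionein gene *MT1C* had 7172 on replicate 2 and 3859 on replicate 1, the lowest signal of any member on replicate 1.

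The remaining classes were small. The 2 cell wall and lipid transfer members were *ECS1* (23370 on replicate 2 and 19105 on replicate 1) and AT1G78040 (15312 on replicate 2 and 16409 on replicate 1), the second described as similar to an olive pollen allergen. Transport gave AT1G53210, the sodium/calcium exchanger NCL, at 5509 on replicate 2 and 6023 on replicate 1, and *OEP16-3* at 5756 on replicate 2 and 4455 on replicate 1. *DI19*, for a drought-induced zinc finger protein, had 7797 on replicate 2 and 8714 on replicate 1, and *CaS*, the thylakoid calcium sensor, 4906 on replicate 2 and 9434 on replicate 1. The cytoskeleton was represented by the alpha-tubulin gene *TUA6* (5879 on replicate 2 and 5336 on replicate 1), the 1 member among 7 named tubulin probe sets, of which *TUB1* was the dimmest at rank 11085.

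A further 17 members had no function within these classes. AT4G01150, also called CURT1A, which bends the margins of thylakoid grana, had 35791 on replicate 2 and 25788 on replicate 1, and *cemA*, for a plastid envelope protein, 16486 on replicate 2 and 13215 on replicate 1. *CP5* had 15013 on replicate 2 and 16606 on replicate 1, and AT4G16980, described only as expressed, 16540 on replicate 2 and 15018 on replicate 1. Among the 89 members without annotation the brightest were AT2G26500 (34751 on replicate 2 and 20999 on replicate 1), AT2G45180 (23707 on replicate 2 and 24079 on replicate 1), AT1G51400 (18789 on replicate 2 and 23185 on replicate 1) and AT3G11630 (23759 on replicate 2 and 16826 on replicate 1). Of these 89, 35 fell among the first 100 members and 54 among the last 100.

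Several gene families that were looked up contributed no member among their named probe sets. Genes of these families without a name of their own were not looked at. The 8 named histone probe sets ranged between ranks 1635 (*HTB4*) and 21318 (*MGH3*). Only 2 actin probe sets were named, at ranks 5855 (*ACT11*) and 21401 (*ACT12*). *Hsp70-2*, the 1 named probe set for heat shock protein 70, was at rank 6676. The 24 cytochrome P450 probe sets began at rank 4185 (*CYP71B6*) and ended at 22218 (*CYP71B31*), and the 20 bZIP and WRKY transcription factor probe sets began at 2921 (*BZIP53*) and ended at 20108 (*WRKY42*). The mitochondrial genome, with 22 named probe sets, had its brightest at rank 3596 (*ccb382*) and its dimmest at 21874 (*matR*). By chromosome, 39 of 69 named plastid-encoded probe sets were members (56.5%), against 1.03% to 1.46% of those on each of the 5 nuclear chromosomes. Exactly 1 symbol was carried by 35.3% of the brightest 567 probe sets, against 59.4% of all. Bright probe sets without a single symbol are therefore missing from these shares.

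**Figure D2:**
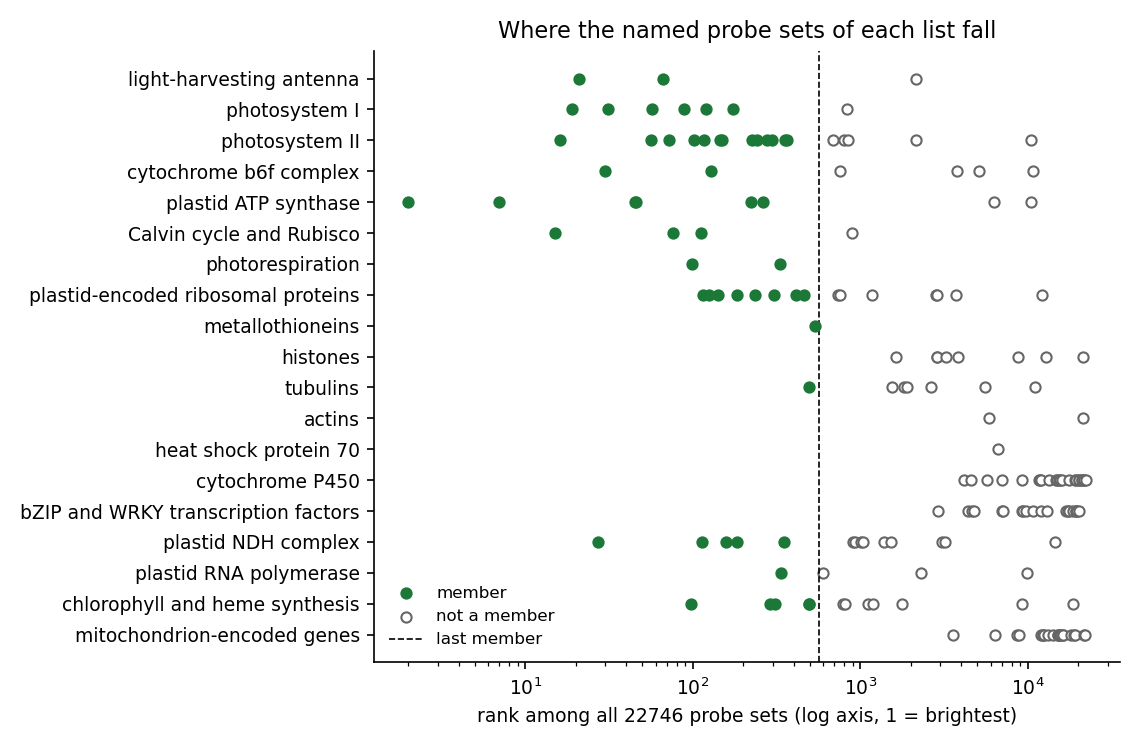
Rank among all 22746 probe sets (log axis, 1 is the brightest) of each named probe set in the gene lists, filled where it is a member and open where it is not. Photosystem II reached between ranks 16 and 10474 and photosystem I between 19 and 830, and the histone, actin, cytochrome P450, transcription factor and mitochondrial lists lay entirely beyond the last member at rank 567.

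The threshold separated probe sets that hardly differed. The last members were AT1G73230 (5787 on replicate 2 and 4445 on replicate 1), *OEP16-3* and AT1G08360 (4886 on replicate 2 and 5236 on replicate 1). The first probe sets outside were AT5G47930 (4272 on replicate 2 and 5917 on replicate 1), AT3G60770 (5077 on replicate 2 and 4969 on replicate 1) and AT1G42960 (5408 on replicate 2 and 4659 on replicate 1). Mean log2 signals were 12.31, 12.31 and 12.30 for the last 3 members and 12.30, 12.29 and 12.29 for the first 3 outside. The last member stood at rank 567 of all probe sets, because 340 of the first 567 had no gene symbol and 27 had several. The brightest probe set of all, 264474_s_at, had no symbol and gave 102339 on replicate 2 and 41690 on replicate 1. It was followed among the unnamed by 256309_at (64687 on replicate 2 and 43564 on replicate 1) and 267002_s_at (62371 on replicate 2 and 42789 on replicate 1).

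The 2 arrays were then compared probe set by probe set, as the log2 signal of replicate 2 minus that of replicate 1. The ranking by the mean did not use this difference, but both come from the same 2 signals. Across the 200 members the median difference was 0.07 and the median absolute difference 0.23, against 0.13 and 0.47 over all probe sets. Within 1.5-fold lay 170 members, and 53 of these were within 1.1-fold. Over all 22746 probe sets 13265 lay within 1.5-fold and 3893 within 1.1-fold. Of the brightest 567 probe sets, members included, 468 lay within 1.5-fold and 141 within 1.1-fold. Of the members 2 were more than 2-fold brighter on replicate 2 and 6 more than 2-fold dimmer, where 15.9% and 7.93% of all probe sets were. The members' share beyond 2-fold, 4.0%, was close to the 3.7% of the brightest 567 probe sets as a whole, and probe sets from rank 568 to 2000 had 4.82%, so it did not set the members apart from others of similar brightness. Pearson's correlation of the log2 signals was 0.84 over the 200 members and Spearman's 0.80, as a description over probe sets that share the same 2 arrays.

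**Figure D3:**
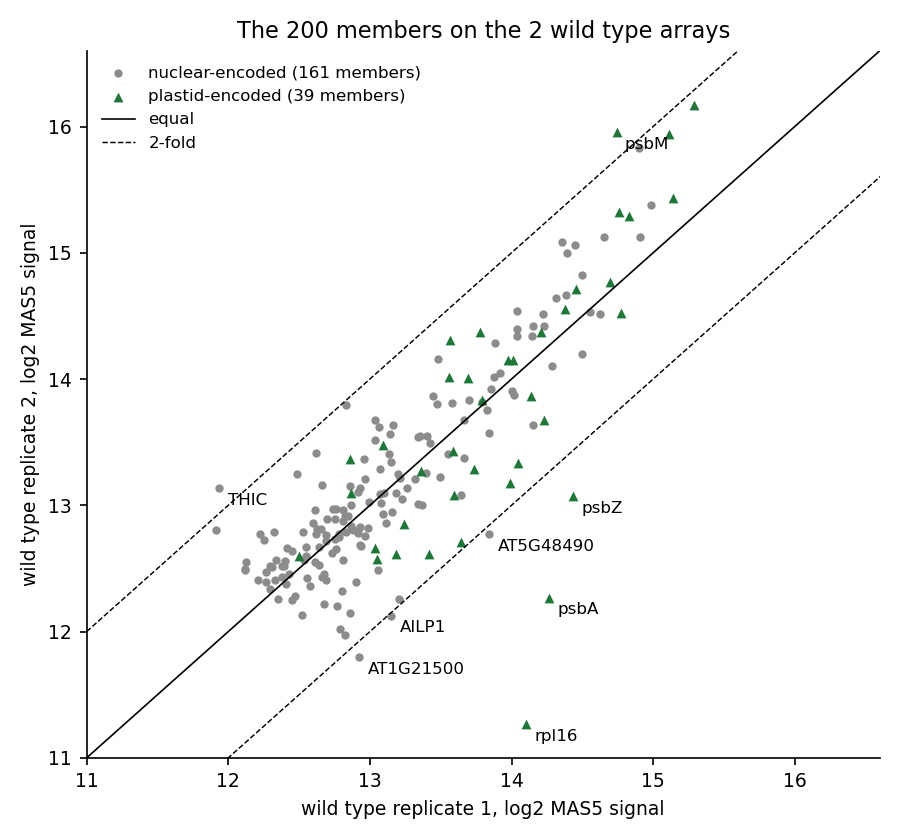
Log2 MAS5 signal of each member on replicate 2 (vertical) against replicate 1 (horizontal), with the line of equality and dashed lines at 2-fold. The 8 members outside the dashed lines are named, and the 4 plastid-encoded ones among them include the 3 farthest below.

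Taken over all members, the plastid-encoded ones lay farther apart on the arrays than the nuclear-encoded ones. Their median absolute difference was 0.46 for 39 members, against 0.21 for 161 nuclear-encoded members, and the SD of the difference was 0.78 against 0.38. The gap was not the same along the ranking: the medians were 0.47 against 0.40 for members 1 to 20, 0.22 against 0.23 for members 21 to 50, 0.51 against 0.22 for members 51 to 100 and 0.47 against 0.16 for members 101 to 150. Among the 200 brightest with a symbol other than a locus tag, an alternative chosen after seeing the data, they were 0.51 for plastid-encoded and 0.35 for nuclear-encoded genes. Ribosomal protein gene *rpl16* was farthest apart, with 2462 on replicate 2 and 17610 on replicate 1, a difference of -2.84. *psbA*, for the D1 protein of the photosystem II reaction centre, had 4935 on replicate 2 and 19662 on replicate 1 (-1.99), and *psbZ*, for a small photosystem II subunit, 8613 on replicate 2 and 22135 on replicate 1 (-1.36). With *psbM* these were the 4 plastid-encoded members beyond 2-fold. Both *rpl16* and *psbA* were among the 200 brightest named probe sets of replicate 1 but not of replicate 2.

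Among nuclear-encoded members 4 of 161 differed more than 2-fold. *THIC*, for the enzyme that makes the pyrimidine part of thiamine, had 9002 on replicate 2 and 3917 on replicate 1 (1.20). AT1G21500 had 3555 on replicate 2 and 7777 on replicate 1 (-1.13), AT5G48490 had 6984 on replicate 2 and 14685 on replicate 1 (-1.07), and *AILP1* had 4466 on replicate 2 and 9095 on replicate 1 (-1.03). The first 2 of these 3 are described only as unknown proteins. The next largest excesses of replicate 2 were *cICDH*, cytosolic isocitrate dehydrogenase, with 14207 on replicate 2 and 7301 on replicate 1 (0.96), *RCA* (0.93) and *MT1C* (0.89). Cytosolic ribosomal proteins lay between -0.39 and 0.26, so that none of the 8 was beyond 2-fold. With only 4 of 161 nuclear-encoded members beyond 2-fold, that count does not set the 8 apart.

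The difference also moved along the ranking. The 20 brightest members were brighter on replicate 2 in 17 cases, with a median difference of 0.43, and the exceptions were *psaJ*, *LHCB4.2* and AT2G45180. Brighter on replicate 2 were also 13151 of all 22746 probe sets (median difference 0.13). Of the brightest 567 probe sets, members included, 374 were (median difference 0.14). The median was 0.17 for members 21 to 50, 0.01 for members 51 to 100, -0.01 for members 101 to 150 and 0.04 for members 151 to 200. The highest member signal was 73731 on replicate 2 and 40023 on replicate 1, while the median member signal was 8652 on replicate 2 and 8631 on replicate 1. With quantile normalization, which gives both arrays the same distribution, the median of the 20 brightest was -0.04. Whether the wider range at the top of replicate 2 came from the plants, the labelling or the scan was not tested.

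**Figure D4:**
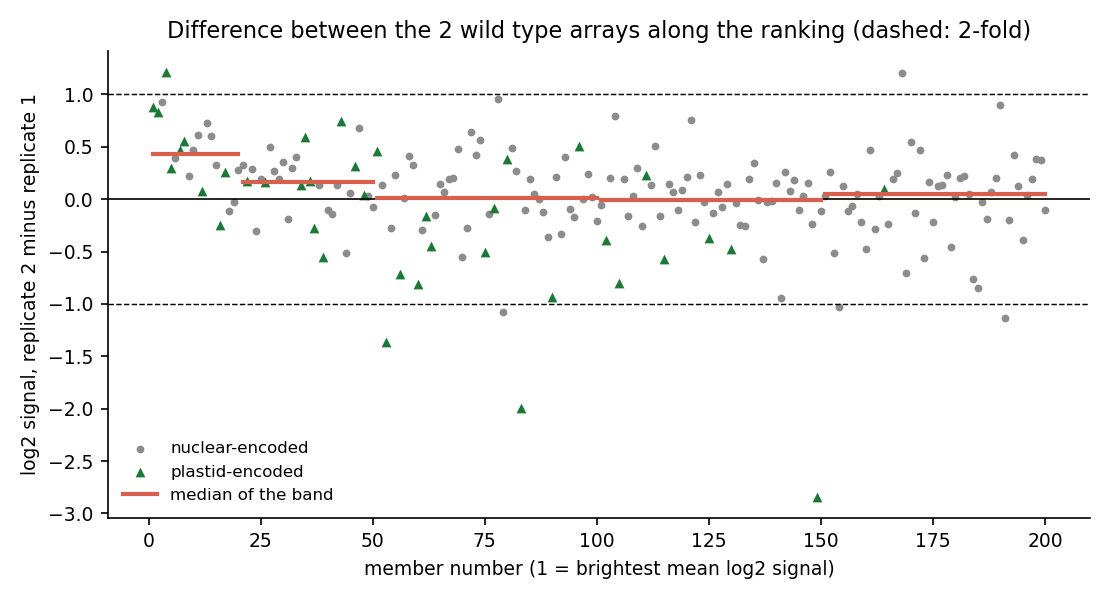
Log2 signal of replicate 2 minus replicate 1 for each member against its place in the ranking, with red bars at the median of each band and dashed lines at 2-fold. The median fell to 0.01 by members 51 to 100, against 0.43 in the first 20, and the 3 lowest points are plastid-encoded.

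Plastid-encoded genes below the threshold were mostly brighter on replicate 1. Of the 39 plastid-encoded members 21 were brighter on replicate 2 and 18 on replicate 1, with a median difference of 0.08. Of the 30 named plastid-encoded genes that were not members, 2 were brighter on replicate 2 and 28 on replicate 1, with a median of -1.07. Over all 22746 probe sets 9571 were brighter on replicate 1. Plastid-encoded and nuclear-encoded probe sets were also compared within bands of rank. Down to rank 567, the members' own band, the medians were 0.08 for the plastid-encoded and 0.07 for the nuclear-encoded ones. The 14 plastid-encoded genes between ranks 568 and 2000 had a median of -1.23 and were all brighter on replicate 1. The 652 nuclear-encoded probe sets with 1 symbol in that range had a median of -0.05, and 368 of them were brighter on replicate 1. The next 9 plastid-encoded genes, down to rank 5000, had a median of -1.01 against -0.04 for 1467 nuclear-encoded ones. For the 7 beyond rank 5000 the median was -0.14, with 5 brighter on replicate 1 and 2 on replicate 2, against 0.23 for 11087 nuclear-encoded ones. Members and bands were set by the mean of the same 2 signals, so a low signal on 1 array also lowers the rank. The contrast of members with other plastid-encoded genes is therefore not independent of the choice. No test of these differences was run, with 1 array per repeat.

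Genes that lie next to each other in the plastid genome differed between the arrays in both directions. Of 17 pairs of members adjacent in gene order 8 differed in the same direction and 9 in opposite directions. The 39 plastid-encoded members as a whole divided into 21 brighter on replicate 2 and 18 on replicate 1. Pairs taken without regard to gene order would therefore also split nearly evenly. The pair *atpB* and *atpE* differed alike (0.88 and 0.83), and so did *petB* and *psbH* (0.56 and 0.46). In the cluster of ribosomal protein genes, by contrast, *rps3* was nearly equal on the arrays (0.04) beside *rpl16* (-2.84), and *rpl22* was at 0.39 beside *rps19* at -0.80. Within the *psaI*-*ycf4*-*cemA*-*petA* cluster, all 4 of whose genes were members, *psaI* was at -0.81 and *petA* at 0.75.

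**Figure D5:**
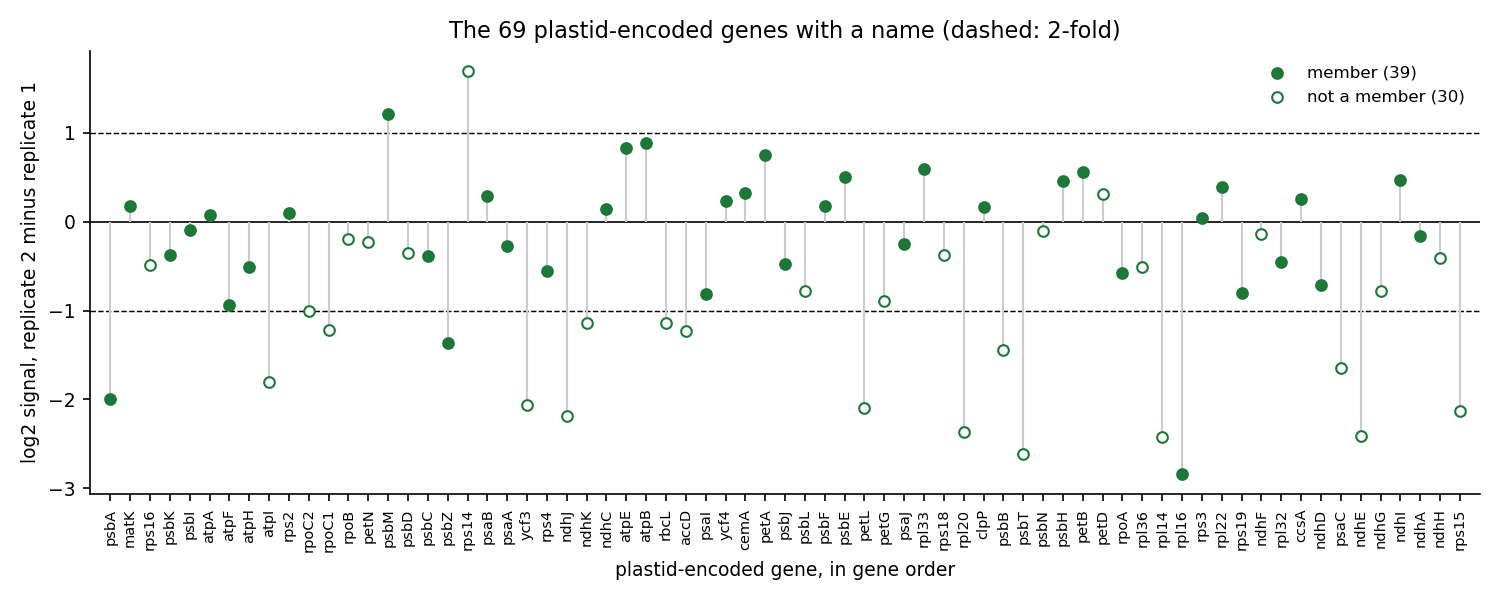
Log2 signal of replicate 2 minus replicate 1 for the 69 named plastid-encoded genes in gene order, filled for the 39 members and open for the 30 others, with dashed lines at 2-fold. Members lie on both sides of 0, and 28 of the 30 others lie below it. Membership was set by the mean of the same 2 signals.

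The choice of members was repeated with each array alone. The 200 brightest named probe sets of replicate 2 and those of replicate 1 shared 170, all of them members. A further 16 members were in the 200 of replicate 2 only and 13 in that of replicate 1 only, and 1 member, AT1G08360, the last of the 200, was in neither. Of the 20 brightest on each array 15 were shared, and of the 50 brightest 41. Ranked on replicate 1 alone the 200 held 47 plastid-encoded genes, and on replicate 2 alone 37.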

How the data were processed

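Shoot RNA of wild-type seedlings, 10 days old, was measured on 2 ATH1 arrays. The deposited intensity is the MAS5 signal, corrected for background and scaled by the authors. The mean of all 22810 probe sets on each array, with 2% trimmed at each end, was 500.05. MAS5 is named in the submitters' processing notes without a version.

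Affymetrix controls (64 probe sets) were left out and log2 signals ranked without further normalization. Names came from the platform annotation, and synonyms and gene order from a RefSeq gene table, whose start coordinates put the genes in order. For members named by a locus tag alone, descriptions were taken from the study's gene lists, which hold genes called changed there. Functional class and place of the product were assigned by hand from these names, symbols and general knowledge.

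The genes named are the 20 brightest members, the 4 brightest of each class, the 5 with the largest difference in each direction, the 3 on each side of the threshold, the 3 brightest unnamed probe sets and the brightest and dimmest of each list. Further genes were named after their values had been seen. The members and lists were chosen with earlier results of these data known, and the lists of NDH, RNA polymerase, chlorophyll and mitochondrion-encoded genes after the ranking had been seen. No test was run, since the 2 arrays are 1 group. The code for ranking and counting was checked on simulated data with far less noise than these arrays, which says nothing about the reliability of the counts. Promoter and protein sequences were not analysed here. The number of arrays limits the precision. Values were computed in Python 3.11.15 (pandas 2.3.3, numpy 2.4.6, scipy 1.17.1) and plotted with matplotlib 3.10.9. Alternatives were the mean of linear signals, quantile normalization, centring on the median, an offset of 50, probe set filters, each array alone and, chosen after seeing the data, symbols other than locus tags and nuclear-encoded members only.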

Additional observations from a re-analysis of the deposited data

How the results depend on the processing

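The members were little affected by scale. Of the 200, 196 were shared with the ranking on the mean of the linear signals and 199 after quantile normalization. All 200 were kept with an offset of 50, which is small beside the lowest member signal of 2462 on replicate 2. Centring on the median shifts each array by a constant, so the ranking could not change and the 200 shared there are no support. Ranked on a single array, 183 to 186 members were kept, with 35 to 41 light reaction genes, 65 to 72 genes with a plastid product and 37 to 47 plastid-encoded genes. Quantile normalization left 1 member more than 2-fold brighter on replicate 2 and turned the median difference of the 20 brightest to -0.041. In the main setting 2 members were more than 2-fold brighter on replicate 2 and 6 dimmer. With the mean of the linear signals these counts were 3 and 9, and with centring on the median 2 and 8. Reading the rule as the brightest 200 of all probe sets left 68 with 1 symbol, of which 39 had a plastid product and 25 were plastid-encoded, with 1 beyond 2-fold in each direction. A pair of alternatives were chosen after seeing the data. With symbols other than locus tags only, 102 of 200 had a plastid product and 15 were more than 2-fold dimmer on replicate 2. With nuclear-encoded members only, 1 was more than 2-fold brighter and 3 dimmer. In these last 2 settings and the reading of the rule the numbers moved because other probe sets were counted. The median absolute difference ranged between 0.21 and 0.38 over the settings. No paired analysis was possible because only 1 group was analysed and no test was run. Probe sets without a symbol, 340 of the brightest 567, limit every count by function.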
